A study of Glycine max with 2 samples.

Results

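AGL62-like peaks that stood alone in the chromosome arms of soybean seed chromatin were described here. The peaks came from chromatin immunoprecipitation and sequencing (ChIP-seq), which pulls down crosslinked DNA with an antibody and compares it with total chromatin (input). Whole seeds of Glycine max, cultivar Williams 82, were used at the globular stage of the embryo, from plants grown in a greenhouse. Seed coat, endosperm and embryo were therefore sampled together, and a peak cannot be placed in one of them. The ChIP group was 1 library made with a rabbit polyclonal antibody against an AGL62-like peptide, and the input group was 1 library of total chromatin without antibody from seeds of the same cultivar, tissue and stage. The series title and the labels name AGL62-like and the design text names WOX9-like, so the name of the protein rests on the labels. With 1 ChIP library there was no replicate check.

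The isolated arm peaks were chosen by the positions of their summits on the deposited list, and numbered 598 of 17179 peaks. Chromosome 13 and the unplaced scaffolds were left out, which left 15801 peaks on 19 chromosomes. The arm zone was the outer 25% of a chromosome's span at either end without the last 2 Mb at each tip, where the span ends with the last peak. It held 10251 peaks. A peak was isolated when no other summit lay within 50 kb on either side, which was true of 5.83% of the arm zone peaks (95% Wilson interval 5.40 to 6.30). The other 9653 peaks of the zone served for comparison. The choice used the same ChIP and input libraries that gave each peak its fold, so the values below are a description and no test was run between these sets.

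AGL62 of Arabidopsis belongs to the type I MADS-domain transcription factors and is known for holding the endosperm in its syncytial phase until cell walls form. MADS-domain proteins bind DNA as dimers, and many of them recognise a short sequence with an A/T-rich core called the CArG box. In soybean, as in many plants with large genomes, genes are dense in the chromosome arms and repeats fill much of the central part. No source used here gives the genome build of the list. Genes, CArG boxes and sequences at the peaks were therefore not analysed here.

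Isolated peaks were spread over all 38 arms, 294 at the first end and 304 at the last end of the chromosomes. An arm held between 5 and 30 of them, with a median of 15.5. The zone measured 374 Mb in total, so there were 1.60 isolated peaks per Mb against 27.4 peaks of any kind per Mb. The nearest other summit was 72.7 kb away at the median and at most 892 kb, compared with a median of 4.12 kb for the other arm peaks. It was over 100 kb away for 181 isolated peaks (30.3%), over 200 kb for 50 and over 500 kb for 7. The stretch without another summit that surrounded an isolated peak had a median length of 225 kb, with the middle 50% of peaks between 159 and 393 kb. The longest such stretch measured 3.43 Mb.

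**Figure D1:**
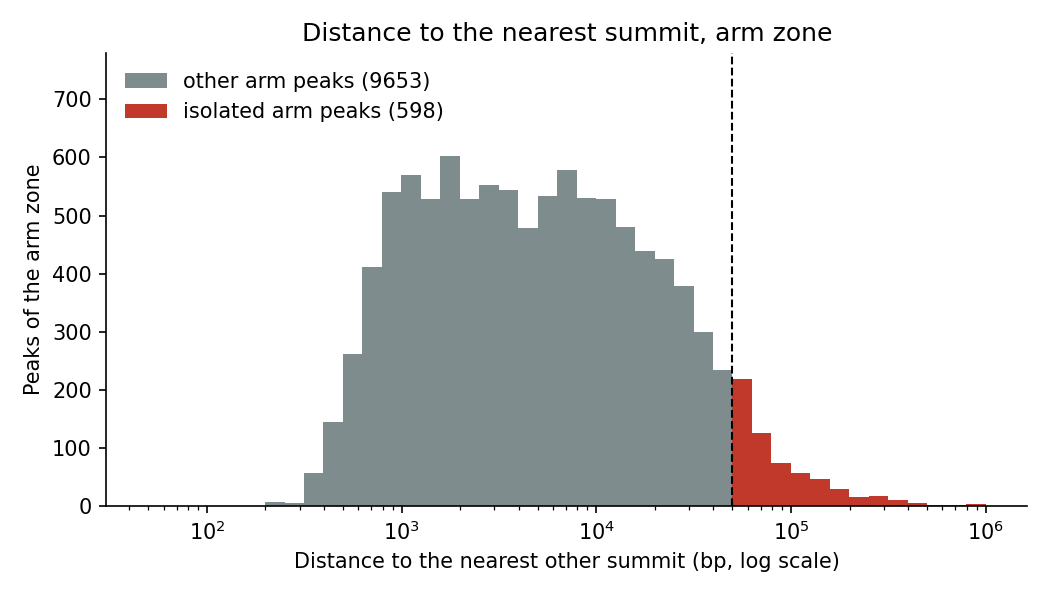
Number of arm zone peaks (vertical axis) by the distance in bp from a summit to the nearest other summit (horizontal axis, log scale), with isolated peaks in red, other peaks in grey and a dashed line at 50 kb. The 598 isolated peaks are the far tail of one continuous distribution whose other members have a median distance of 4.12 kb.

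The border at 50 kb did not fall in a gap of the distribution. Of the arm zone peaks, 227 had their nearest summit 40 to 50 kb away, with a median fold of 5.49 and a median width of 383 bp. Another 162 had it 50 to 60 kb away, with a median fold of 5.32 and a median width of 356 bp. The members closest to the border lay 50129 bp and 50306 bp from another summit on chromosome 1 and 50141 bp on chromosome 6, with folds of 8.53, 7.20 and 5.32. The first peaks outside it lay 49704 bp from a summit on chromosome 7, with a fold of 7.44, and 49681 bp apart from each other on chromosome 1, with folds of 4.78 and 5.00. At the inner border, 172 isolated peaks lay 20% to 25% from a chromosome end (median fold 5.58), and 150 that lay 25% to 30% from it were outside the zone (5.47). At the tips, 39 isolated peaks lay 2 to 3 Mb from the end (median fold 5.02), and 43 that lay 1 to 2 Mb from it were outside the zone (5.10).

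Standing alone within 50 kb did not mean standing in an empty region. Within 500 kb on either side an isolated peak had a median of 19 other summits, with the middle 50% of peaks between 8 and 32. More than 20 were present around 280 of the 598, and none around 7. The other arm peaks had a median of 39, with the middle 50% between 30 and 49. Of the isolated peaks, 330 (55.2%) had another of the 598 as the next summit, in 84 pairs and 41 longer runs. The other 268 had none of the 598 as the next summit on either side. Of all arm zone peaks, 5.83% were isolated. The rule itself favours such runs, since a gap over 50 kb counts for the summits on both of its sides. What part of the runs comes from this was not tested. The longest runs had 9 isolated peaks each. One lay at the last end of chromosome 6 between summits at 38963363 and 41635474, over 2.67 Mb, with folds from 2.99 to 10.7. The other lay at the first end of chromosome 20 between 3002838 and 4383728, over 1.38 Mb, with folds from 3.42 to 10.4.

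Arms with few peaks had a larger part of them isolated, which the rule itself favours. Isolated peaks made up 28.6% of the 77 arm zone peaks at the last end of chromosome 15 (95% Wilson interval 19.7 to 39.5). They made up 27.5% of the 69 at the first end of chromosome 20 (18.4 to 39.0), 22.5% of the 80 at the first end of chromosome 19 and 22.1% of the 86 at the first end of chromosome 3. At the other extreme were the first end of chromosome 17, with 5 isolated peaks among 459 (1.09%, interval 0.466 to 2.52), and the first end of chromosome 11, with 5 among 354 (1.41%). The opposite ends of the same chromosomes could differ widely, as on chromosome 15, where the first end had 12 isolated among 440 peaks (2.73%).

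The number of isolated peaks per Mb varied less than the density of all peaks. It ran from 0.596 at the first end of chromosome 17 to 2.71 at the last end of chromosome 4, while the density of all arm zone peaks ran from 6.94 to 54.7 per Mb. The 10 arms of lowest density held 195 isolated peaks, or 1.86 per Mb, and the 10 arms of highest density held 108, or 1.12 per Mb. Across the 38 arms, the share of isolated peaks and the density of peaks had a Spearman's rho of −0.97. The points share 1 library, and both measures come from the same summits. In the sparsest 10 arms the median fold was 5.44 for isolated and 5.57 for other peaks, and in the densest 10 it was 5.58 and 5.41, so the order of these medians was not the same in both.

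**Figure D2:**
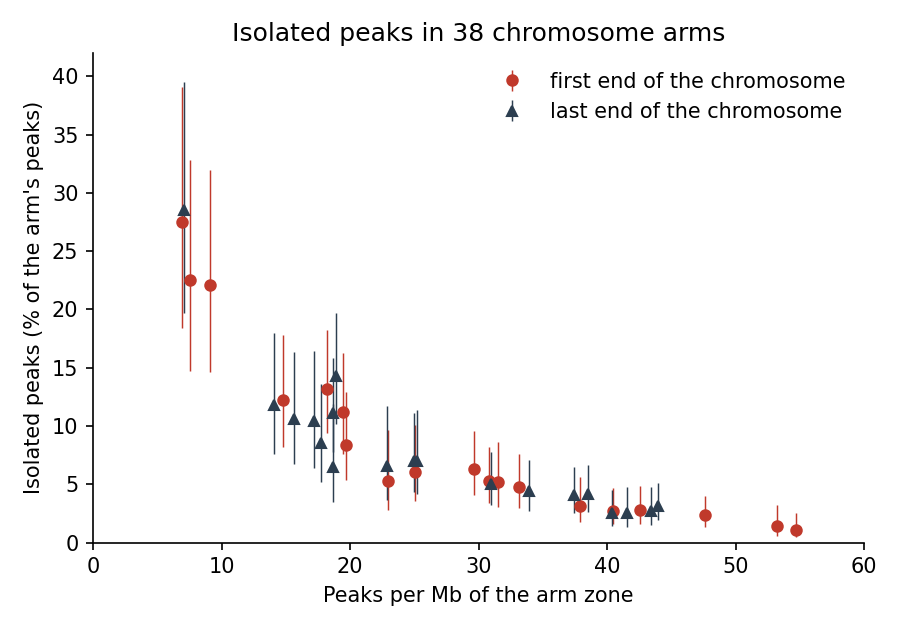
Isolated peaks as a percentage of an arm's peaks (vertical axis) by the number of peaks per Mb of the arm zone (horizontal axis) in 38 arms, with 95% Wilson intervals as bars, circles for the first and triangles for the last end. The share goes from 28.6% in one of the sparsest arms to 1.09% in the densest.

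The share of isolated peaks was lowest at 5% to 10% from the chromosome end and higher further in. It was 4.71% of 531 peaks (25 isolated) in the outermost 5%, of which the tips were left out, 3.16% of 3359 at 5% to 10%, 5.39% of 2764 at 10% to 15%, 7.01% of 2083 at 15% to 20% and 11.4% of 1514 at 20% to 25%. In the central 50% of the same chromosomes, 636 of 2696 peaks (23.6%) met the same distance rule, and within 2 Mb of the tips 107 of 2854 (3.75%). The number of peaks fell as the share rose, from 3359 at 5% to 10% to 1514 at 20% to 25%. The rule itself favours a larger share where peaks are sparse, and a part of position beyond density was not tested. The median fold was 5.32 in isolated peaks of the arms and of the centre alike, and 5.12 in isolated peaks of the tips (95% intervals 5.21 to 5.55, 5.19 to 5.58 and 4.87 to 5.52).

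Among called peaks, the isolated ones had about the same fold as those that had neighbours. Fold enrichment, the ratio of ChIP signal to local background given by the authors' peak caller, had a median of 5.32 (95% interval 5.21 to 5.55) in isolated and 5.44 (5.39 to 5.51) in other arm peaks. The log2 ratio of the medians was −0.03, and the bounds of both medians allow −0.08 to 0.04. The middle 50% of isolated peaks lay between 4.52 and 7.02, and that of the others between 4.52 and 7.02 as well. Both sets hold only peaks that passed the same limit of the peak caller. With a limit of 10 on −log10 q, both medians rose, to 7.06 and 7.14. On 9 of the 19 chromosomes the isolated peaks had the higher median and on 10 the lower, with log2 ratios from −0.27 on chromosome 16 to 0.18 on chromosome 3. These intervals treat peaks as independent and cover sampling of peaks within 1 library only.

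The shares of high and of low folds were close as well. A fold of 10 or more was reached by 37 of the 598 isolated peaks (6.19%, 95% Wilson interval 4.52 to 8.41), against 6.99% of all arm zone peaks and 7.22% of all peaks on the list. A fold of 15 or more was reached by 6 isolated peaks (1.00%) and by 95 others (0.984%), and a fold under 4 was found in 77 (12.9%) and 1135 (11.8%). The highest fold was 19.5 among the isolated and 31.7 among the other arm peaks, in sets of very different size.

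Median folds lay close together along the scale of distance. The median was 5.44 in arm zone peaks with a summit under 2 kb away, 5.58 at 2 to 10 kb, 5.30 at 10 to 25 kb and 5.32 at 25 to 50 kb. It was 5.33 in the 417 isolated peaks with a summit 50 to 100 kb away, 5.28 in the 131 at 100 to 200 kb and 5.57 in the 50 at 200 kb or more (95% interval 4.89 to 6.75). Among isolated peaks, distance and fold had a Spearman's rho of 0.00048 over 598 peaks of 1 library. The nearest neighbour of an isolated peak had the higher fold in 306 cases, the lower in 291 and the same in 1.

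**Figure D3:**
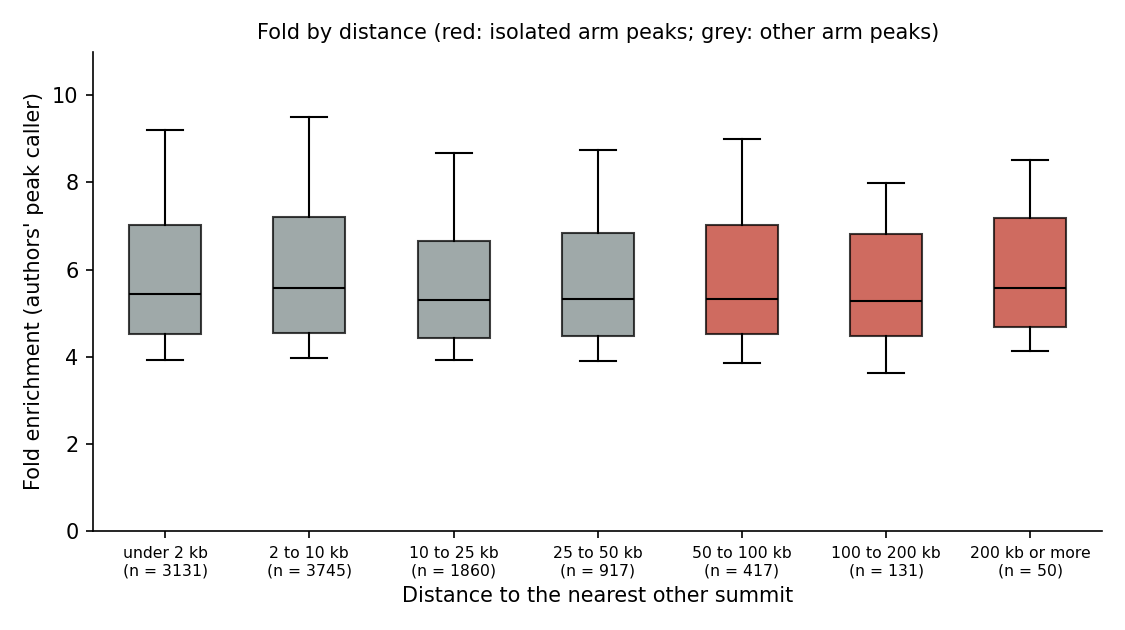
Fold enrichment of arm zone peaks (vertical axis) in 7 classes of distance to the nearest summit (horizontal axis, number of peaks in brackets), with the line at the median, the box over the middle 50% and whiskers at the 10th and 90th percentiles. The medians of the isolated peaks, in red, range from 5.28 to 5.57 and those of the others, in grey, from 5.30 to 5.58.

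The number of ChIP fragments stacked at the summit, solved from each peak's fold and p-value, shows the depth behind these folds. It had a median of 22 in isolated peaks (95% interval 21 to 23), with 10% of them at 16 or fewer and 10% at 38 or more. In the other arm peaks the median was 23 (23 to 23). When the fragment count and the input reads both took their 95% exact Poisson bounds, the fold of a single isolated peak reached, at the median, 51.6% below and 66.2% above its deposited value. This range joins the extremes of both counts and is not a 95% interval of the fold. For peaks at the genome-wide floor of the background, described below, only the fragment count was varied. For the other peaks, an input bound below that floor was replaced by the floor, which limits the upper ends of the ranges. Differences of fold between single peaks were not tested, and the order of folds within such ranges is not settled. A −log10 q-value of 5 or more was given to 531 isolated peaks (88.8%) and to 90.4% of the others, and one of 10 or more to 258 (43.1%) and 47.6%.

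Isolated peaks had a slightly lower median width. It was 369.5 bp (95% interval 353 to 386) against 390 bp (387 to 394) in the other arm peaks, and isolated peaks had the lower median on 11 of 19 chromosomes and the higher on 8. A width of 1 kb or more was found in 14 isolated peaks (2.34%) and 315 others (3.26%). The shortest width on the list, 249 bp, was found in 37 (6.19%) and 495 (5.13%). Width follows the height of a peak, so widths were also set side by side at like fragment counts. In 5 classes of fragment count, cut at the quintiles of the arm zone, isolated peaks had the lower median in each. The medians were 285 and 295 bp for isolated and other peaks at 12 to 18 fragments, 372 and 374 bp at 22 to 25, and 560.5 and 574 bp at 33 or more. The summit lay in the middle 50% of the peak's length in 91.6% of isolated and 90.6% of other peaks.

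The background used by the peak caller was more often at its lowest possible level in isolated peaks. The background of a peak is the highest of the input levels in windows of 249 bp, 1 kb and 10 kb and of a genome-wide floor of 2.76 fragments. The floor was the background of 95 of 598 isolated peaks (15.9%, 95% Wilson interval 13.2 to 19.0) and of 905 of 9653 others (9.38%, interval 8.81 to 9.97). The share was higher in isolated peaks on 16 of the 19 chromosomes and lower on 3. It was 14.1% with the nearest summit 50 to 100 kb away, 20.6% at 100 to 200 kb and 18% (9 of 50 peaks) at 200 kb or more, and between 8.76% and 10.9% in the classes under 50 kb. The median input level was 3.19 fragments in isolated and 3.29 in other arm peaks.

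The share at the floor also moved with the number of peaks in the wider surroundings. Where at most 10 other summits lay within 500 kb, it was 21.2% in 198 isolated and 19.2% in 349 other peaks. With 11 to 20 it was 15.8% and 14.4%, with 21 to 40 it was 12.7% and 9.72%, and with more than 40 it was 10.0% (6 of 60 isolated peaks, interval 4.66 to 20.1) and 7.48%. The Wilson intervals of isolated and other peaks overlap in each of these 4 classes. The part of local density in the pooled difference was not tested.

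**Figure D4:**
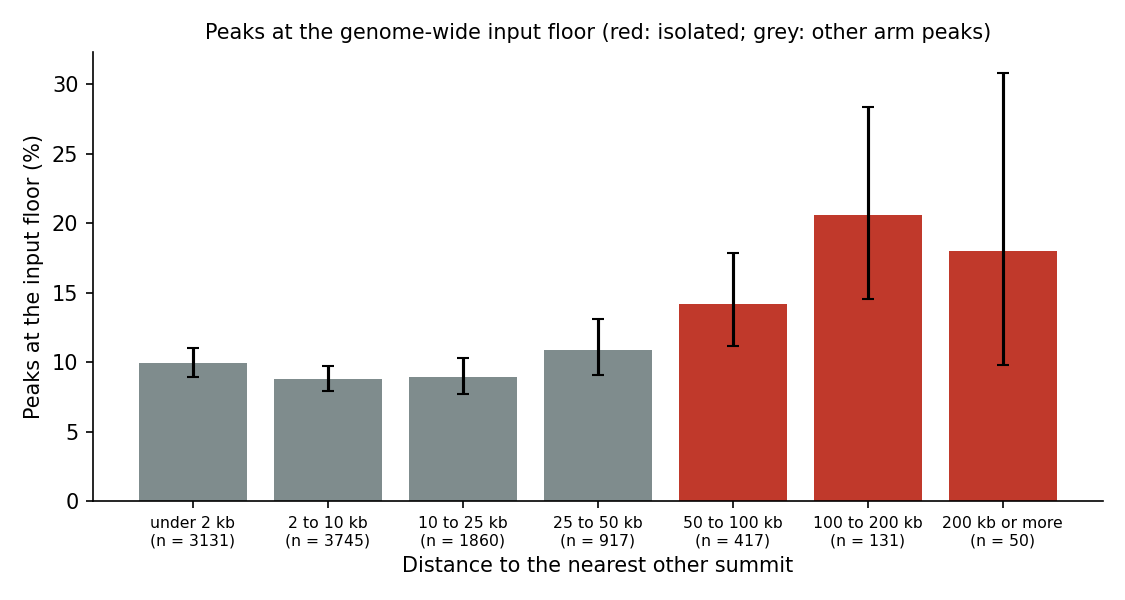
Percentage of arm zone peaks whose background was the genome-wide input floor (vertical axis) in 7 classes of distance to the nearest summit (horizontal axis, number of peaks in brackets), with 95% Wilson intervals. The bars of the isolated peaks, in red, stand between 14.1% and 20.6% and those of the others, in grey, between 8.76% and 10.9%.

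The isolated peak with the highest fold lay on chromosome 10 (positions 9074984 to 9075537), at 17.6% of the span. Its fold was 19.5 (range 14.0 to 24.7 at the 95% bounds described above, as for the folds below), from 73 fragments over an input level of 2.79. The nearest summits were 277 kb before and 280 kb after it, so it was also among the 50 peaks with no neighbour within 200 kb. The second, on chromosome 15 (positions 12680129 to 12681767), was 1639 bp wide and had a fold of 18.3 (14.3 to 23.2) from 68 fragments over the floor. The third lay on chromosome 9 (positions 5195115 to 5195753), with a fold of 17.0 (13.1 to 21.7) from 63 fragments over the floor. The ranges of these folds overlap, so they do not settle the order.

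The next peaks in the order of fold differed in their surroundings. The peak on chromosome 1 (positions 9495781 to 9496346), with a fold of 16.5 (11.6 to 21.4) from 62 fragments, stood 435 and 326 kb from its neighbours and had 5 other summits within 500 kb. The peak on chromosome 7 (positions 9940019 to 9940751), with a fold of 16.2 (9.27 to 20.8) from 60 fragments, stood 56.6 and 73.6 kb from its neighbours and had 27. The peak on chromosome 12 (positions 34487422 to 34489423) had a fold of 16.2 (10.0 to 26.0) from 84 fragments and 31 summits within 500 kb. It was 2002 bp wide.

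Ranks 7 to 10 had folds from 14.3 to 13.4. They lay on chromosome 4 (positions 3587093 to 3589262), on chromosome 7 (positions 37240841 to 37241464), on chromosome 10 (positions 43756265 to 43757073) and on chromosome 7 (positions 35205636 to 35206088). The first of these had 59 fragments and 57 other summits within 500 kb, the nearest of them 55.8 kb away. Chromosome 7 carried 3 of the 10, with 53 to 60 fragments each, and 27 of the 598 isolated and 547 of the 9653 other arm peaks. The lower ends of the ranges of these 3 folds were 9.27, 7.98 and 9.25. A fold of 10 or more was reached by 37 isolated peaks, so which peaks are the highest 10 is not settled.

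The widest isolated peaks did not all have a high summit. A width of 2170 bp was found in the peak on chromosome 4 named above and in one on chromosome 14 (positions 46425135 to 46427304). The latter had a fold of 5.94 (3.53 to 9.44) from 23 fragments, close to the median of all isolated peaks. The third in width was the peak of 2002 bp on chromosome 12.

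The 5 peaks farthest from any other summit had folds from 5.05 to 8.51, against a median of 5.32 in all isolated arm peaks. On chromosome 14, the peak from 38684356 to 38684877 had no other summit within 892 kb and a fold of 5.58 (2.17 to 10.4) from 26 fragments. On chromosome 19, the peak from 10191805 to 10192203 stood 879 kb from the summit before it and 2553 kb from the one after it, with a fold of 5.60 (2.86 to 10.4), also from 26 fragments. A pair of neighbours on chromosome 8 lay 936 kb apart. The one from 36857967 to 36858301 had a fold of 5.72 (2.91 to 10.4), and the one from 37794345 to 37794783 had 8.51 (5.87 to 12.0) from 31 fragments over the floor. The fifth, on chromosome 12 (positions 31553236 to 31553628), had a fold of 5.05 (3.10 to 7.83) from 18 fragments over the floor.

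One isolated peak stood apart from the other isolated peaks by its input. It lay on chromosome 17 (positions 35672076 to 35672333) and had 171 fragments, the most of all isolated peaks, over an input level of 113, the highest, and a fold of 1.51 (1.15 to 1.98), the lowest. The next highest input levels were 6.83 fragments, on chromosome 19 (positions 46082756 to 46083181) and on chromosome 14 (positions 5318885 to 5319506), with folds of 5.62 and 3.32. The next lowest folds were 2.75, on chromosome 17 (positions 35010683 to 35010946), from 17 fragments, and 2.89, on chromosome 11 (positions 30341892 to 30342140), from 13 fragments. The lower ends of the ranges of these folds, 1.04 and 0.955, were close to no enrichment. High input also occurred among the other arm peaks, where 8 of 9653 had input at 3 times the floor or more. The highest level there was 131 and the lowest fold 1.46. Leaving out all peaks with input at 3 times the floor or more put the median fold of isolated peaks at 5.33.

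**Figure D5:**
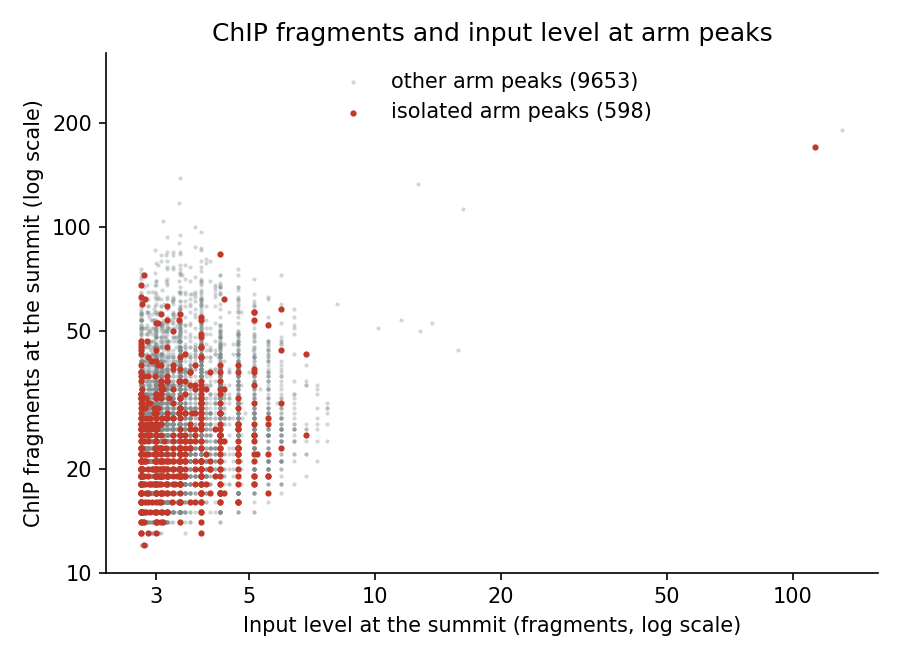
ChIP fragments at the summit (vertical axis) against the input level of the peak's background in fragments (horizontal axis, labelled input level at the summit). Both axes are on log scales, for 598 isolated arm peaks (red) and 9653 other arm peaks (grey). Apart from 1 peak at an input level of 113, the isolated peaks lie between input levels of 2.76 and 6.83.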

How the data were processed

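The submitters' processing notes name SAMtools 0.1.18, Bowtie 0.12.7 and MACS2. The version and settings of the peak caller and the build of the genome were not given in the sources used here. Peaks came as 1 deposited list in narrowPeak layout without a header. It belongs to the 1 ChIP library, and the input enters only through it. The fold of each peak is the authors' ratio of ChIP to local background. The deposited p-value and q-value are −log10 values, and the smallest −log10 q was 2.03. The deposited score was not used.

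Summits were taken as start plus offset, and printed positions are 1-based. Fragments at a summit and the input level of its background were solved from fold and p-value, taking MACS2's known formulas, with a pseudocount of 1 and a Poisson tail. A whole number of fragments fitted all 17179 peaks within a tolerance of 0.0001 in −log10 p, with a misfit of at most 8.93e-05, and the next best number missed by at least 0.00046. Each background level matched the floor or a whole number of input reads in a window of 249 bp, 1 kb or 10 kb. The total depth of the libraries is not stated.

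Intervals of medians are 95% exact binomial order-statistic intervals, and those of shares are Wilson intervals. All cover counting error only. The recovery of fragment counts and the marking of isolated peaks were tested on simulated peaks, with a narrower range of counts and backgrounds than the list. The assignment of background levels to windows or to the floor was not tested in this way. The rule, comparisons and classes were chosen with earlier results of these data known, and the share at the input floor was added after seeing the data. Peaks named are the 10 of highest fold, the 3 widest, the 3 with most fragments, the 5 most distant, the 3 of highest input, the 3 of lowest fold and the 3 on either side of 50 kb. Alternatives were other distances, zones, tips, q-value limits and distance measures, and leaving out peaks of high input. The gene table at hand (assembly Glycine_max_v4.0) was not used, since its build was not shown to be that of the list. Scripts ran on Python 3.11.15 with scipy 1.17.1, pandas 2.3.3, numpy 2.4.6 and matplotlib 3.10.9.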

Additional observations from a re-analysis of the deposited data

How the results depend on the processing

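The log2 ratio of median fold, isolated over other arm peaks, stayed between −0.035 and −0.017 under each of 11 alternatives. The number and share of isolated peaks followed the rule. With 25 kb in place of 50 kb there were 1515 (14.8% of arm zone peaks), of which 12.9% were at the input floor. With 100 kb there were 181 (1.77%), with 19.9% at the floor and a median input level of 3.06. The share was 4.88% in the outer 20% of the span, 6.67% in the outer 30% and 6.35% with 3 Mb left out at the tips. In a list of −log10 q of 5 or more, the share was 6.92%, the median fold 5.58 in isolated and 5.66 in other peaks, and the median width 387 bp. There, 67 of the 598 peaks fell out and 110 others became isolated. In a list of −log10 q of 10 or more, 841 peaks (17.3%) were isolated and 258 of them were among the 598. Median folds were then 7.06 and 7.14, 12.96% of isolated peaks reached a fold of 10, the median width was 470 bp, the median fragment count 30, and 12.5% of isolated and 8.75% of other peaks were at the floor. In that list 583 of the isolated peaks were newly isolated, so both the loss of weak peaks and the change of members enter these values, and their parts were not separated. The share at the floor was higher in isolated than in other peaks under all 11 alternatives. Leaving out peaks of high input, and all values on the floor, were chosen after seeing the data. Depth limits single folds, which rested on as few as 12 fragments.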

Other observations

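Isolated peaks outside the arms had input values of the same order. In the central 50% of the chromosomes, 132 of 636 isolated peaks (20.8%, 95% Wilson interval 17.8 to 24.1) and 289 of 2060 others (14.0%, 12.6 to 15.6) had the genome-wide floor as their background. Within 2 Mb of the tips the shares were 9.35% of 107 isolated peaks (5.16 to 16.4) and 7.24% of 2747 others (6.33 to 8.27). The highest fold of an isolated central peak was 29.0, against 19.5 in the arms and 10.8 at the tips. Median widths of isolated peaks were 366 bp in the centre, 369.5 bp in the arms and 378 bp at the tips. These values were chosen after the data were seen, and the differences between the zones were not tested.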
